A study of Gossypium hirsutum with 24 samples.

Results

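The jasmonate biosynthesis genes of upland cotton leaves were followed during feeding by the cotton bollworm (CBW, the larva of Helicoverpa armigera). Members were the probe sets that the study listed under jasmonic acid biosynthesis, a list of 44, less 3 probe sets of 1 allene oxide synthase gene that are not analysed here. The remaining 41 probe sets, of 23972 on the array, were matched by the study to 23 genes of Gossypium raimondii, a diploid cotton, and those gene identifiers begin with Gorai. The study chose the list for its response to CBW feeding on these same arrays. Differences between CBW-damaged and control leaves are therefore given here as a description. Calls on that difference are counted beside the share of all probe sets called, no p is given for a member, and they are not evidence that the list responded.

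Leaves of Gossypium hirsutum cv. CCRI12 were taken from plants at the stage of 6 to 7 expanded true leaves, 5 to 6 weeks after sowing. Plants were either left undamaged (control) or exposed to CBW larvae, and both were harvested 6, 12, 24 and 48 h after feeding began. There were 3 arrays for each of the 8 groups, 24 in all, each made from whole leaves pooled from 3 plants, and the sources differ on the number of larvae and the kind of bag. Because whole leaves were used, more cells of a type and more RNA per cell cannot be told apart. The sources used here do not give the hour of the day at each harvest, so that hours of feeding and hour of the day cannot be told apart between harvests that were not whole days apart, also in control leaves.

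Jasmonate is the lipid-derived hormone that plants make on wounding and attack by chewing insects. In the chloroplast, lipoxygenase (LOX) adds oxygen to linolenic acid, allene oxide synthase (AOS) turns the product into an unstable epoxide, and allene oxide cyclase (AOC) closes the ring of 12-oxophytodienoic acid. In the peroxisome, 12-oxophytodienoate reductase (OPR3) reduces it, and rounds of beta-oxidation, with acyl-CoA oxidase (ACX) and 3-ketoacyl-CoA thiolase (KAT), shorten the side chain to jasmonic acid, which jasmonate O-methyltransferase (JMT) can convert to the volatile methyl ester.

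Names were held for 25 of the 41 members, which stand for 10 genes. There were 9 LOX probe sets of 2 genes, 2 of AOS, 2 of AOC (2 genes), 4 of OPR3, 3 of ACX2, 1 of KAT and 2 of JMT. A further 2 members were named as the E2 subunit of branched-chain keto acid dehydrogenase, an enzyme of amino acid breakdown that is not a step of the pathway above. The other 16 members, of 13 genes, had no name in the sources used here and are given by their Gorai identifier, and 2 of them also had a platform symbol. The JMT probe set named by the study had salicylate O-methyltransferase as its closest protein and jasmonate O-methyltransferase as its pathway name. Probe sets of 1 gene are not separate genes, and names ending in _s_at or _x_at mark probe sets whose probes can match several related transcripts, so members of 1 gene or of the 2 AOC genes may share signal. Several probe sets of 1 gene, or of AOC, are lettered from a in the order of their array identifiers (LOX3-a to LOX3-e, for example), and the plain name LOX marks Gorai.009G071200.1 and BCE2 the dehydrogenase subunit. Both the letter and the array identifier stand beside each row of the heat map.

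Values are MAS5 signal intensities on a linear scale. Array medians lay between 358 and 399 and the 20th percentile of an array between 106 and 121, and replicate arrays correlated at 0.935 to 0.995. Values were given for 33 members at all 4 times, for 3 members at 3 times and for 5 members at 1 time. In 16 members all 3 control arrays of at least 1 time lay below the 20th percentile of their arrays, where fold differences rest on very dim signals. Within groups the members also moved together by array. In control leaves at 24 h, 30 of the 33 members measured throughout were above the group mean on replicate 2 and 2 of 33 on replicate 3, and in control leaves at 48 h replicate 2 was above it for 5 of 33. Differences below are on the log2 scale, with the standard error (SE) of limma's fit over all arrays, and a probe set is called at an adjusted p of 0.05 or less.

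Most members were brighter in CBW-damaged leaves, at every time. Of 37 members measured at 6 h, 28 were called higher and 1 lower, beside 26.1% and 36.5% of all probe sets tested. The 12 h harvest had 37 of 39 called higher and none lower, beside 19.9% and 24.7%. For 24 h the calls were 28 of 36 higher and none lower, beside 20% and 29.3%, and for 48 h 28 of 34 higher and 1 lower, beside 22.4% and 22.6%. Where none was called lower by limma, none had an unadjusted p under 0.05 in that direction either. Since the list was chosen on this difference, these counts describe it and nothing is read from them. At 12 h, all 3 CBW arrays lay above all 3 control arrays in all 39 members measured, which was so for 23.5% of all probe sets.

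From the first time to the last the median difference of the members was 1.68, 2.10, 1.45 and 1.24. Over all probe sets the median lay between -0.13 and 0.00. Of the 33 members measured throughout, 22 (14 genes) were called higher at all 4 times. The share of all probe sets called so was not counted, and nothing is read from this number. A difference of at least 4-fold with a call at 1 time or more was found in 23 of 41 members, of 13 genes, and in 7.93% of all probe sets. Among the 33 members measured throughout, 20 had their largest difference at 12 h, 9 at 6 h, and 2 each at 24 h and 48 h. The heat map gives the CBW minus control differences by step, and the time of the largest one differed between steps.

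**Figure D1:**
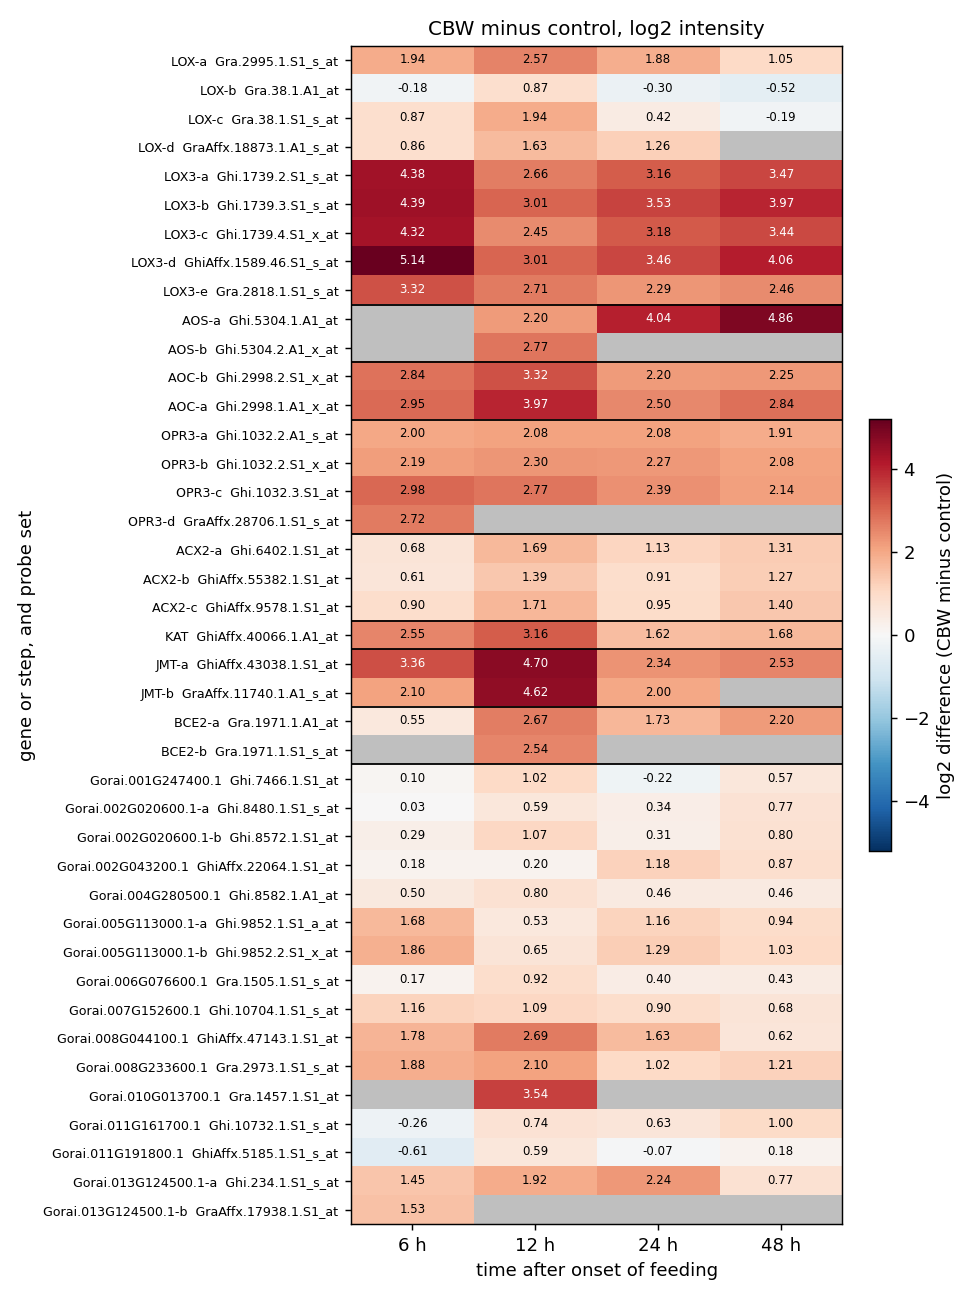
Log2 difference between CBW-damaged and control leaves for each of the 41 members (rows, grouped by step with black lines, unnamed genes last) at 6, 12, 24 and 48 h (columns); red is higher in CBW-damaged leaves, blue lower, grey not measured. LOX3 is darkest at 6 h, the 2 JMT probe sets at 12 h, and AOS-a at 48 h, where its difference was 4.86.

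LOX3, a lipoxygenase of the first step, gave the largest difference of any member at 6 h. All 5 of its probe sets (Gorai.011G060400.1) were brighter in CBW-damaged leaves at every time, with differences of 3.32 to 5.14 first, then 2.45 to 3.01, then 2.29 to 3.53 and last 2.46 to 4.06. LOX3-e gave the lowest of these at 6, 24 and 48 h. All control arrays of LOX3-b and LOX3-e lay below the 20th percentile of their arrays, so their differences rest on dim signals. On probe set LOX3-a, the control arrays of 6 h read 406, 551 and 445, those of 12 h 2096, 1005 and 1098, those of 24 h 509, 702 and 360, and those of 48 h 653, 431 and 549. For LOX3-a the CBW arrays of 6 h read 8478, 8719 and 12134, those of 12 h 7998, 8114 and 9014, those of 24 h 3964, 5357 and 4319, and those of 48 h 6785, 5228 and 5948. The groups did not overlap at any time, and the control arrays were themselves high at 12 h. From the first time to the last its differences were 4.38, 2.66, 3.16 and 3.47 (SE 0.26).

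The largest difference of any member was that of LOX3-d at 6 h, 5.14 ± 0.34 (SE). At that time its control arrays read 110, 174 and 147 and its CBW arrays 4159, 3764 and 7787. At 12 h its control arrays read 803, 349 and 342 and its CBW arrays 3546, 3355 and 4215. From 6 to 12 h the difference was 1.70 in control leaves, and -0.43 in CBW-damaged leaves (adjusted p = 0.333 from limma). At 24 h its control arrays read 145, 220 and 105 against 1289, 2125 and 1626 in CBW-damaged leaves, and at 48 h 154, 104 and 155 against 2626, 1922 and 2313. The LOX3 response was smaller at 12 h than at 6 h in all 5 probe sets, by 0.61 (SE 0.49) in LOX3-e and by 1.38 (SE 0.27) to 2.13 (SE 0.48) in the other 4. These differences between times are built from the contrast that chose the list and carry no test.

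The second lipoxygenase gene, Gorai.009G071200.1, did not behave alike on its 4 probe sets. LOX-a was brighter in CBW-damaged leaves at all times, by 1.94, 2.57, 1.88 and 1.05 (SE 0.19). All control arrays of LOX-a, and those of LOX-d where measured, lay below the 20th percentile of their arrays. LOX-c had 0.87, 1.94, 0.42 and -0.19 (SE 0.25), and LOX-d, with no values at 48 h, had 0.86, 1.63 and 1.26 (SE 0.24). Their largest difference was thus at 12 h, as was that of the fourth, LOX-b, which had the lowest difference of any member at 24 h and at 48 h. Its control arrays of 6 h read 88.9, 93.2 and 111, those of 12 h 70.3, 62.2 and 75.2, those of 24 h 157, 146 and 137, and those of 48 h 107, 91.5 and 93.5. For LOX-b the CBW arrays of 6 h read 124, 88.5 and 57.9, those of 12 h 140, 119 and 121, those of 24 h 121, 106 and 133, and those of 48 h 67.2, 73.7 and 62.8. The groups overlapped at 6 h, and the CBW arrays were above the control at 12 h and below it at 24 h and 48 h, with differences of -0.18, 0.87, -0.30 and -0.52 (SE 0.19). With intensities below the 20th percentile raised to it, the difference of LOX-b was 0.13 at 12 h and 0.00 at 48 h.

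AOS, which makes the allene oxide, was represented by Gorai.010G013600.1 on 2 probe sets, both with all control arrays below the 20th percentile of their arrays. AOS-a had no values at 6 h. Its control arrays read 15.3, 65.1 and 29.2 for 12 h, 24.2, 30.5 and 15.1 for 24 h, and 19.9, 19.9 and 29.1 for 48 h. Its CBW arrays read 142, 149 and 134, then 363, 523 and 263, then 539, 797 and 663 over the same times. The groups did not overlap, and the CBW arrays at 48 h were all above those at 24 h. Differences for AOS-a were 2.20, 4.04 and 4.86 (SE 0.41), the largest of any member at 24 h and at 48 h. They were 0.30, 1.63 and 2.47 with intensities raised to the 20th percentile. Without any 1 array, the difference at 12 h ranged from 1.70 to 2.74. The second probe set, AOS-b, had values at 12 h alone, where its difference was 2.77 ± 0.49 (SE).

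The 2 AOC genes, which form the ring of the hormone's precursor, were brighter in CBW-damaged leaves throughout. On AOC-a (Gorai.004G046300.1) the control arrays of 6 h read 1516, 2058 and 1258, those of 12 h 1259, 316 and 730, those of 24 h 1799, 2097 and 653, and those of 48 h 1436, 642 and 1051. For AOC-a the CBW arrays of 6 h read 12160, 12183 and 12316, those of 12 h 11081, 9691 and 10386, those of 24 h 7765, 8072 and 7191, and those of 48 h 8272, 5746 and 7536. CBW arrays lay close together and far above control arrays at each time, while control arrays were widely spread at 12 h and 24 h. Differences were 2.95, 3.97, 2.50 and 2.84 (SE 0.42), and that at 24 h was 1.98 without control 24 h replicate 3. Without any 1 array, that at 12 h ranged from 3.435 to 4.432. The other AOC probe set, AOC-b (Gorai.004G046100.1), had 2.84, 3.32, 2.20 and 2.25 (SE 0.28).

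OPR3, the peroxisomal reductase, kept nearly the same difference at all times on 2 of its 4 probe sets. On OPR3-a (Gorai.009G035400.1) the control arrays of 6 h read 2174, 2593 and 2021, those of 12 h 2263, 1278 and 1521, those of 24 h 1713, 1951 and 1172, and those of 48 h 2071, 1467 and 1871. For OPR3-a the CBW arrays of 6 h read 8209, 9105 and 9806, those of 12 h 6807, 6552 and 7474, those of 24 h 6123, 7306 and 6561, and those of 48 h 7563, 5728 and 7016. The groups never overlapped, and the differences were 2.00, 2.08, 2.08 and 1.91 (SE 0.20). OPR3-b had 2.19, 2.30, 2.27 and 2.08 (SE 0.18), OPR3-c had 2.98, 2.77, 2.39 and 2.14 (SE 0.32), and OPR3-d, measured at 6 h alone, had 2.72 ± 0.29 (SE).

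ACX2, an oxidase of the peroxisomal beta-oxidation, showed smaller differences on 3 probe sets of Gorai.007G240800.1. On ACX2-a the control arrays of 6 h read 620, 785 and 839, those of 12 h 651, 799 and 533, those of 24 h 539, 618 and 415, and those of 48 h 538, 575 and 518. For ACX2-a the CBW arrays of 6 h read 1271, 1414 and 935, those of 12 h 2142, 1895 and 2284, those of 24 h 1204, 1144 and 1045, and those of 48 h 1056, 1743 and 1333. The groups did not overlap at any time, CBW arrays were highest at 12 h, and the differences were 0.68, 1.69, 1.13 and 1.31 (SE 0.20). The other 2 probe sets, ACX2-b and ACX2-c, had 0.61 and 0.90 at 6 h and 1.39 and 1.71 at 12 h.

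KAT, the thiolase that ends a round of beta-oxidation, was measured by 1 probe set (Gorai.001G185200.1), whose control arrays all lay below the 20th percentile at 3 times. Its control arrays of 6 h read 66.9, 103 and 85.5, those of 12 h 176, 68.0 and 86.4, those of 24 h 72.1, 94.1 and 46.0, and those of 48 h 100, 41.3 and 84.8. For KAT the CBW arrays of 6 h read 828, 462 and 312, those of 12 h 1138, 837 and 770, those of 24 h 211, 287 and 150, and those of 48 h 268.95, 173 and 248. The groups did not overlap, and the differences were 2.55, 3.16, 1.62 and 1.68 (SE 0.41), of which those at 24 h and 48 h were 0.80 and 0.93 with intensities raised to the 20th percentile.

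JMT is named for the enzyme that forms methyl jasmonate, although the closest protein of JMT-a was salicylate O-methyltransferase. The JMT probe sets gave the largest differences at 12 h. On JMT-a (Gorai.008G065900.1) the control arrays of 6 h read 549, 298 and 245, those of 12 h 191, 295 and 1188, those of 24 h 973, 990 and 585, and those of 48 h 849, 443 and 252. For JMT-a the CBW arrays of 6 h read 4937, 4054 and 2174, those of 12 h 9541, 10956 and 11216, those of 24 h 6192, 3845 and 3098, and those of 48 h 3310, 1988 and 2768. Control arrays were widely spread at 12 h, and still all lay below the CBW arrays of their time. Differences were 3.36, 4.70, 2.34 and 2.53 (SE 0.54), and that at 12 h was 5.47 without control 12 h replicate 3. JMT-b of the same gene, with no values at 48 h, had 2.10, 4.62 and 2.00 (SE 0.33). All control arrays of JMT-b lay below the 20th percentile of their arrays, so its differences rest on dim signals.

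**Figure D2:**
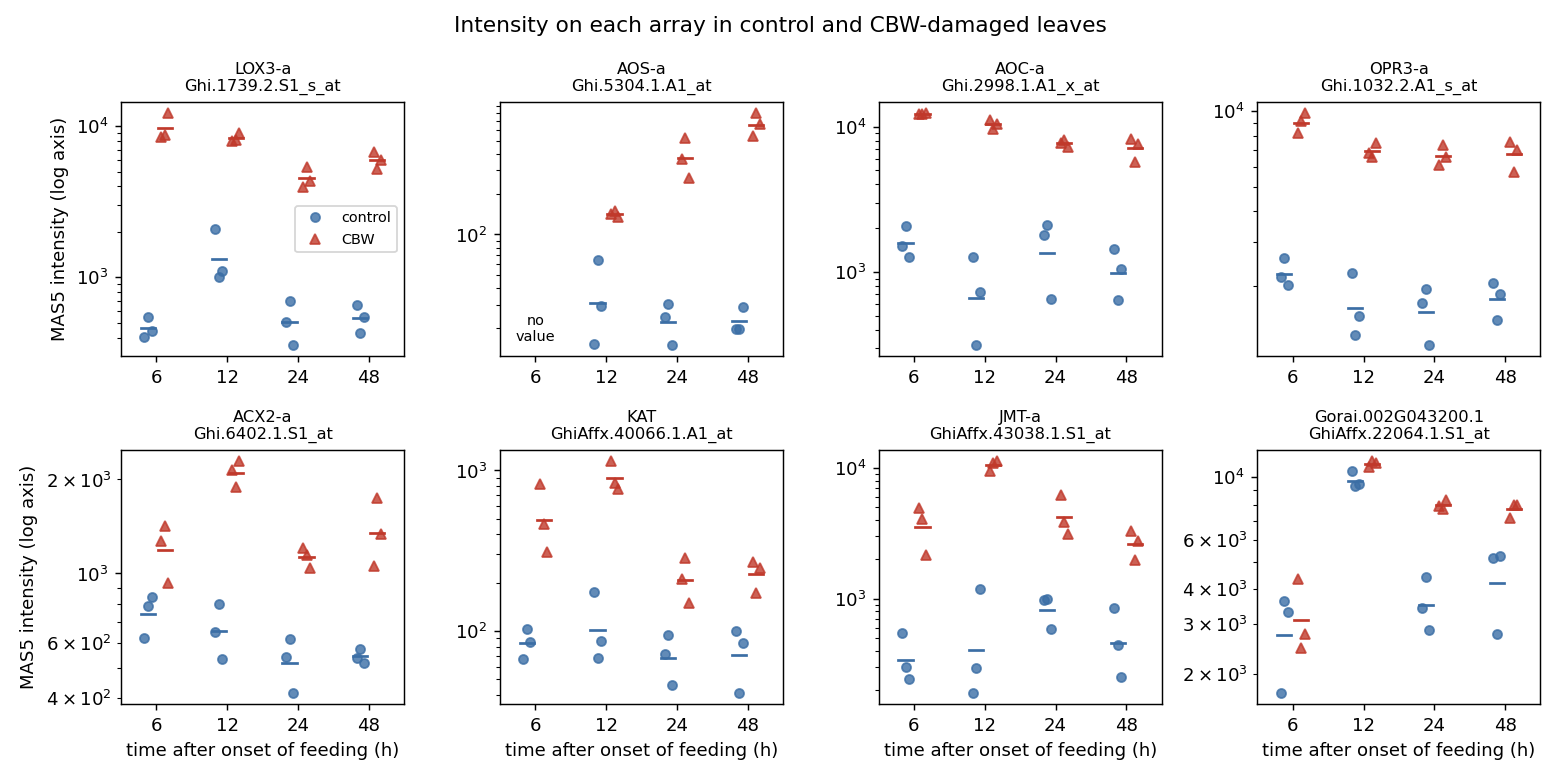
MAS5 intensity (log axis) on each of the 3 control arrays (blue circles) and 3 CBW arrays (red triangles) at 6, 12, 24 and 48 h for 1 probe set of each step and for the unnamed gene 002G043200 (Gorai.002G043200.1); short bars are geometric means. Red and blue separate at every time in the 7 named steps where values exist, and in 002G043200 they mix at 6 h and are both high at 12 h, where the lowest array read 9296.

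Among members outside these steps, the 2 probe sets of the branched-chain keto acid dehydrogenase subunit (Gorai.006G261300.1) differed by 2.67 (SE 0.23) in BCE2-a at 12 h, its largest difference, and by 2.54 (SE 0.14) in BCE2-b, which had values at 12 h alone, with every array below the 20th percentile. The unnamed Gorai.010G013700.1, also measured at 12 h alone, had 3.54 ± 0.11 (SE) from control arrays of 12.4 to 14.3. Gorai.013G124500.1 had 1.45 and 1.53 at 6 h on its 2 probe sets, and on the one measured throughout, Gorai.013G124500.1-a (platform symbol LOC107919998), 1.92, 2.24 and 0.77 at the later times. The 1.53 came from the probe set measured at 6 h alone, with every array below the 20th percentile. Gorai.008G044100.1 had 1.78, 2.69, 1.63 and 0.62. Gorai.008G233600.1 had 1.88, 2.10, 1.02 and 1.21. Both genes were thus highest against control at 12 h. The 2 probe sets of Gorai.005G113000.1 had 1.68 and 1.86 at 6 h and 0.53 and 0.65 at 12 h, and were thus, like LOX3, smaller at 12 h than at 6 h.

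The remaining unnamed members differed less. Gorai.007G152600.1 (platform symbol LOC107912592) had 1.16, 1.09, 0.90 and 0.68 (SE 0.17), and Gorai.004G280500.1 had 0.50, 0.80, 0.46 and 0.46 (SE 0.11). The 2 probe sets of Gorai.002G020600.1 differed by 0.03 and 0.29 in the leaves of 6 h, by 0.59 and 1.07 in those of 12 h, by 0.34 and 0.31 in those of 24 h and by 0.77 and 0.80 in those of 48 h. Gorai.001G247400.1 went from 0.10 at 6 h to 1.02 at 12 h and -0.22 at 24 h, and Gorai.006G076600.1 had 0.17, 0.92, 0.40 and 0.43. Gorai.011G161700.1 had -0.26 at 6 h and 1.00 at 48 h.

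Gorai.011G191800.1 had the lowest difference at 6 h. On its probe set the control arrays of 6 h read 494, 521 and 540, those of 12 h 293, 364 and 326, those of 24 h 531, 478 and 489, and those of 48 h 460, 439 and 463. For Gorai.011G191800.1 the CBW arrays of 6 h read 348, 357 and 317, those of 12 h 455, 510 and 513, those of 24 h 490, 489 and 451, and those of 48 h 514, 521 and 504. CBW arrays were all below control at 6 h, all above it at 12 h and 48 h, and overlapped with it at 24 h. Differences were -0.61, 0.59, -0.07 and 0.18 (SE 0.09).

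Gorai.002G043200.1 had the smallest difference of any member at 12 h. On its probe set the control arrays of 6 h read 1714, 3636 and 3308, those of 12 h 10494, 9296 and 9438, those of 24 h 3431, 4409 and 2865, and those of 48 h 5172, 2765 and 5235. For Gorai.002G043200.1 the CBW arrays of 6 h read 4343, 2462 and 2779, those of 12 h 10853, 11391 and 11284, those of 24 h 7900, 7738 and 8320, and those of 48 h 7193, 7977 and 7964. At 12 h both groups were bright, and from 24 h the CBW arrays stayed high while the control arrays were low. Differences were 0.18, 0.20, 1.18 and 0.87 (SE 0.27), and that at 6 h was -0.16 without control 6 h replicate 1 and -0.07 without CBW 6 h replicate 1.

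Changes between times within control leaves were not themselves used to choose the list, but they share control arrays with the feeding difference that was. A member may thus have been listed partly because its control arrays were high or low at 1 time. The calls and adjusted p-values between times carry this limit. From 6 to 12 h, 8 of 35 members (4 genes) rose and 7 of 35 (7 genes) fell, beside 19.9% and 23.2% of all probe sets, and the median change was -0.04 among members and -0.03 among all. The share that moved was thus close to that of the array. What moved differed by gene. LOX3 rose in 4 of its 5 probe sets, by 1.47 to 1.73, among them LOX3-c by 1.73 (SE 0.21, adjusted p = 2.18e-06 from limma), while LOX3-e had 0.09 (SE 0.35). All control arrays of LOX3-b lay below the 20th percentile, and raised to it the rise of LOX3-b was 0.02 in place of 1.47. Gorai.002G043200.1 rose most, by 1.83 (SE 0.27, adjusted p = 1.76e-05 from limma). Gorai.008G044100.1 and both probe sets of Gorai.005G113000.1 rose by 1.27, 0.83 and 0.91.

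The 2 AOC genes fell from 6 to 12 h in control leaves while LOX3 rose. AOC-a fell by 1.25 (SE 0.42, adjusted p = 0.0217 from limma) and AOC-b by 0.89 (SE 0.28, adjusted p = 0.0153 from limma). Both AOC calls were lost without control 6 h replicate 2 (adjusted p = 0.0830 and 0.0543) and without control 12 h replicate 2 (adjusted p = 0.158 and 0.102), the array that read 316 on the first. Without either array 3 rather than 7 members were called lower. Falls were also called in the dehydrogenase subunit (BCE2-a), by 1.02, Gorai.013G124500.1-a, by 0.83, and Gorai.011G191800.1, by 0.67 (SE 0.09, adjusted p = 6.14e-06 from limma). Smaller falls, of 0.54 and 0.50, were called in OPR3-b and LOX-b.

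From 12 to 24 h in control leaves, a comparison that shares the 12 h arrays with the one before, 8 of 36 members (4 genes) fell and 4 of 36 (3 genes) rose, beside 18.4% and 20.2% of all probe sets. LOX3 was among those that fell. The 4 LOX3 probe sets changed by -1.61 to -1.39 (LOX3-b by 0.05 when raised to the 20th percentile), Gorai.002G043200.1 fell by 1.47 (SE 0.27, adjusted p = 0.000234 from limma) and Gorai.008G044100.1 by 1.19. Both probe sets of Gorai.005G113000.1 fell, by 0.84 and 0.85. Rises were called in Gorai.011G191800.1, by 0.61, in Gorai.001G247400.1, by 0.78 (adjusted p = 0.0561 without control 24 h replicate 2), and in LOX-b and LOX-c, by 1.08 and 1.25. Without control 24 h replicate 3, the array on which members were low, 7 rather than 4 were called higher. From 24 to 48 h, only Gorai.001G247400.1 was called, falling by 1.03 (SE 0.22, adjusted p = 0.0460 from limma), beside 0.171% of all probe sets called lower. That call was lost without any 1 of 17 of the 24 arrays (adjusted p = 0.0514 to 0.274). No member was called higher by limma, where 1 had an unadjusted p under 0.05 and 0.199% of all probe sets were called.

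**Figure D3:**
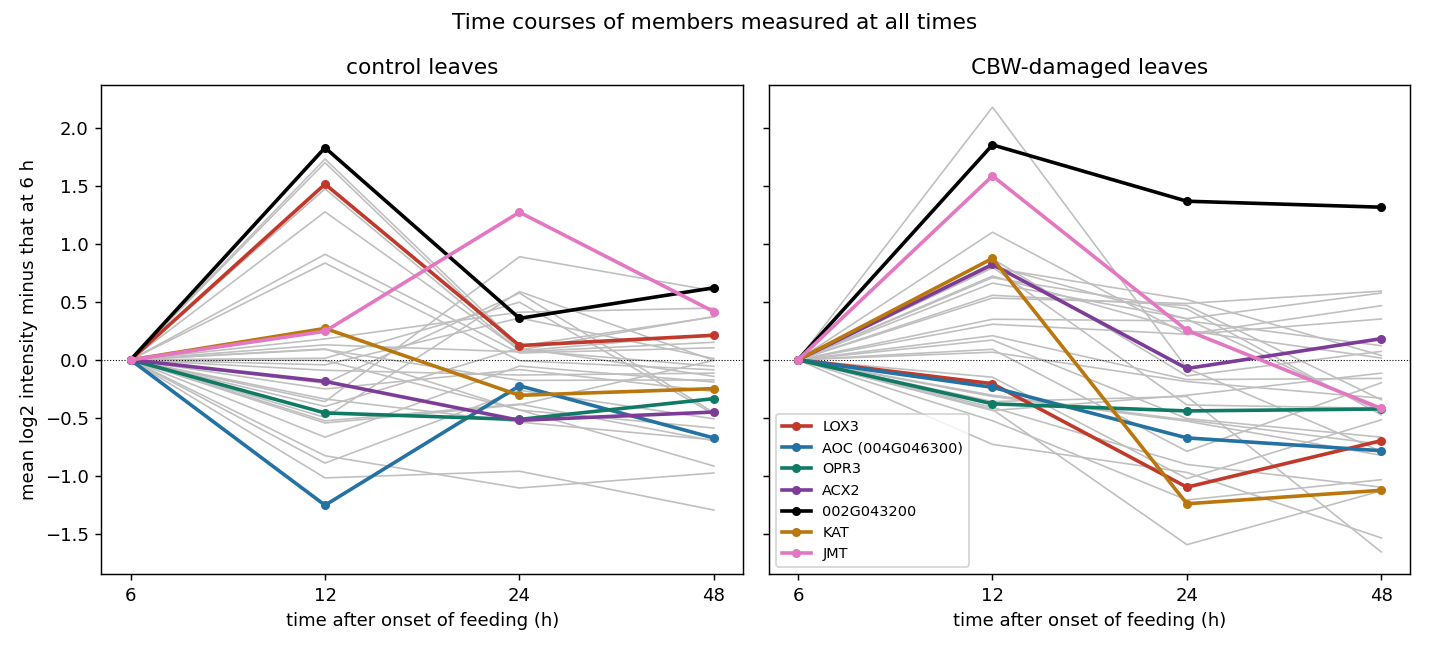
Mean log2 intensity relative to 6 h (vertical axis) over 6, 12, 24 and 48 h (horizontal axis, evenly spaced) in control leaves (left) and CBW-damaged leaves (right) for the 33 members measured at all times; 1 probe set of each step is coloured, 002G043200 is black and the others are grey. In control leaves LOX3 and 002G043200 peak at 12 h where AOC is lowest, and in CBW-damaged leaves LOX3 has no such peak.

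In CBW-damaged leaves, whose arrays are likewise shared with the feeding difference, JMT and ACX2 rose from 6 to 12 h, and no probe set of LOX3, AOC or OPR3 was called. Members may have been listed partly because their CBW arrays were high at 1 time, and all changes in CBW-damaged leaves carry this limit. In all, 13 of 35 members (9 genes) were called higher and none lower (2 at an unadjusted p under 0.05), beside 21.5% and 18.7% of all probe sets. Without control 12 h replicate 1, 2 members were called lower, and 1 was without control 12 h replicate 2, CBW 12 h replicate 3 or control 24 h replicate 3. JMT rose most, by 3.15 in JMT-b (SE 0.33, adjusted p = 2.51e-06 from limma) and by 1.58 in JMT-a (SE 0.54, adjusted p = 0.0255 from limma). The rise of JMT-b started from dim signals, as its CBW arrays of 6 h read 126, 122 and 71.9. The JMT-a call was lost without CBW 6 h replicate 3 (adjusted p = 0.123) and without CBW 12 h replicate 2 or 3 (adjusted p = 0.0647 and 0.0646). ACX2 rose by 0.82 and 0.87 on 2 of 3 probe sets, and LOX gene Gorai.009G071200.1 by 0.56 to 0.81 on 3 of 4. Rises were also called in Gorai.008G044100.1, by 2.18, Gorai.002G043200.1, by 1.85, and the dehydrogenase subunit, by 1.10. LOX3 had -0.52 to 0.09, the 2 AOC probe sets -0.24 and -0.41, and OPR3 -0.73 to -0.38.

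Of the 35 members measured at 6 and 12 h, 10 were called in control leaves alone, 8 in CBW-damaged leaves alone, 5 in both and 12 in neither. The shares of all probe sets in these classes were not counted, and nothing is read from these numbers. The 5 called in both comprised 2 that rose in both kinds of leaf, Gorai.002G043200.1 and Gorai.008G044100.1, and 3 that fell in control and rose in CBW-damaged leaves, which were BCE2-a, LOX-b and Gorai.011G191800.1. The control arrays of LOX-b lay below the 20th percentile of their arrays at both times. A call in one kind of leaf alone does not show that the leaves differed. The difference between them, which is the change of the feeding response and has no test here, was 2.12 (SE 0.33) for BCE2-a, 1.20 (SE 0.12) for Gorai.011G191800.1 and 0.02 (SE 0.38) for Gorai.002G043200.1.

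**Figure D4:**
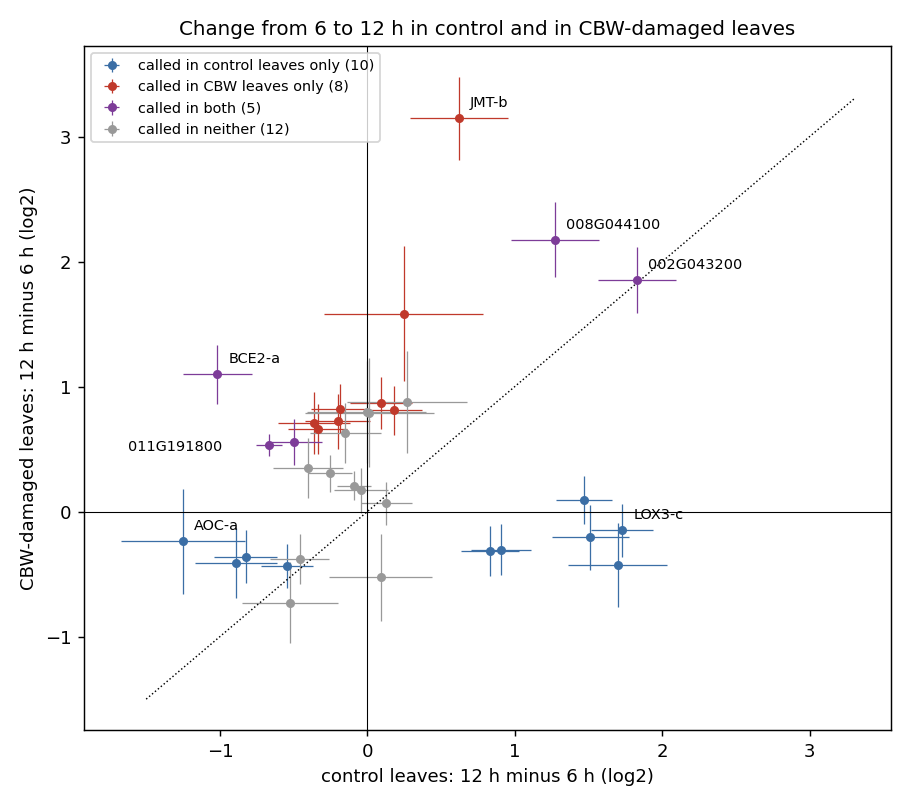
Log2 change from 6 to 12 h in control leaves (horizontal axis) against that in CBW-damaged leaves (vertical axis) for the 35 members measured at both times; bars are standard errors, colour gives where the change was called at an adjusted p of 0.05 or less, and the dotted line marks equal change. LOX3-c lies far to the right (1.73) near 0 on the vertical axis (-0.15), JMT-b lies highest, at 3.15, and 002G043200 lies on the line.

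From 12 to 24 h in CBW-damaged leaves, 13 of 36 members (8 genes) fell and 1 rose, beside 12.9% called in each direction among all probe sets, and the median change was -0.45 among members and 0.00 among all. JMT-b fell by 2.47 (SE 0.33, adjusted p = 6.66e-05 from limma), while JMT-a of the same gene had -1.33 (SE 0.54, adjusted p = 0.0804 from limma). Falls were also called in Gorai.008G044100.1, by 2.25 (SE 0.30, adjusted p = 1.89e-05 from limma) and KAT, by 2.11 (SE 0.41, adjusted p = 0.000799 from limma). Falls were called in all 3 ACX2 probe sets, with changes of -1.19 to -0.90, and in 4 of 5 LOX3 probe sets, with changes of -1.16 to -0.87. The calls of ACX2-c and LOX3-d were lost without CBW 24 h replicate 1 (adjusted p = 0.0910 and 0.0720) and CBW 12 h replicate 3 (adjusted p = 0.0966 and 0.0641), and the former also without CBW 12 h replicate 1 (adjusted p = 0.114) or CBW 24 h replicate 3 (adjusted p = 0.120). Without the last of these arrays 8 members were called lower. The 1 member that rose was AOS-a, by 1.38 (SE 0.41, adjusted p = 0.0224 from limma), and its call was lost without any 1 of 5 of the 6 arrays compared (adjusted p = 0.0510 to 0.0956).

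From 24 to 48 h in CBW-damaged leaves, 3 of 34 members fell and none rose (2 at an unadjusted p under 0.05), beside 0.874% and 0.831% of all probe sets. These were Gorai.013G124500.1-a, by 1.34 (SE 0.22, adjusted p = 0.00572 from limma), and LOX-b and LOX-a, by 0.81 and 0.80 (adjusted p = 0.0327 and 0.0420 from limma). The calls of both LOX probe sets were lost without any 1 of the 6 arrays compared (adjusted p = 0.0555 to 0.171), and 1 member was then called lower. Raised to the 20th percentile, LOX-b changed by -0.02.

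Against 6 h, CBW-damaged leaves at 48 h were lower in 11 of 33 members and higher in 4, beside 17.6% and 26.6% of all probe sets. The 5 largest falls were those of Gorai.013G124500.1-a, by 1.65 (SE 0.22, adjusted p = 8.96e-06 from limma), OPR3-c, by 1.53, LOX3-d, by 1.13, KAT, with -1.12, and AOC-b, by 1.10. Gorai.002G043200.1 was higher by 1.31 (SE 0.27, adjusted p = 0.000664 from limma), and Gorai.011G191800.1, Gorai.011G161700.1 and Gorai.002G020600.1-a by 0.59, 0.58 and 0.47. The KAT call was lost without CBW 6 h replicate 1 or 2 or CBW 48 h replicate 2 or 3 (adjusted p = 0.0551 to 0.166), and the LOX3 call without CBW 6 h replicate 3 or CBW 48 h replicate 2 (adjusted p = 0.0797 and 0.0504). The call of Gorai.011G161700.1 was lost without CBW 6 h replicate 2 or 3 or CBW 48 h replicate 2 or 3 (adjusted p = 0.0536 to 0.139), and that of Gorai.002G020600.1-a without CBW 6 h replicate 1 or CBW 48 h replicate 2 (adjusted p = 0.0827 and 0.124) and with only the groups compared in the fit (adjusted p = 0.0808). With quantile normalization or median centring 2 members rather than 4 were called higher, the last 2 named being lost. Without CBW 48 h replicate 2, members called lower numbered 6 and higher 2, and without CBW 6 h replicate 2, 7 were called lower.

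The same comparison in control leaves was added after the data were seen. At 48 h, 4 of 33 members were lower than at 6 h, beside 17.9% of all probe sets, and none was called higher by limma (3 at an unadjusted p under 0.05), beside 13.4%. They were BCE2-a, which fell by 1.29 (SE 0.23, adjusted p = 0.000554 from limma), Gorai.013G124500.1-a, which fell by 0.97 (adjusted p = 0.00258 from limma), Gorai.011G161700.1, which fell by 0.69 (adjusted p = 0.0137 from limma), and ACX2-b, which fell by 0.59 (adjusted p = 0.0397 from limma). Gorai.013G124500.1-a was thus lower at 48 h in both kinds of leaf, and Gorai.011G161700.1 lower in control and higher in CBW-damaged leaves. Without control 6 h replicate 2 or 3 the last 2 calls were lost (adjusted p = 0.0566 to 0.207) and 2 members were called lower, and without control 6 h replicate 1, 8 were. The call of ACX2-b was also lost without any 1 of the 3 control arrays of 48 h (adjusted p = 0.0728 to 0.0885). Without control 6 h replicate 2 or 3, CBW 6 h replicate 1 or 3 or control 48 h replicate 2, 1 member was called higher.

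The median correlation between members was higher within genes than between genes. Over the 24 arrays the median Pearson correlation of log2 intensity was 0.96 for the 21 pairs of probe sets of the same gene and 0.72 for the 507 pairs of different genes. Over the 12 control arrays these medians were 0.82 and 0.17, and over the 12 CBW arrays 0.90 and 0.33. After the group means were taken out they were 0.77 and 0.26. Pairs of 1 gene ranged from 0.24 to 1.00 over the 24 arrays and from 0.12 to 0.99 over the CBW arrays. In control leaves LOX3-a correlated with Gorai.002G043200.1 at 0.90 and with AOC-a at -0.14, and in CBW-damaged leaves at -0.44 and 0.84. These pairs share arrays and times, so the values are a description.

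Other genes of the pathway were looked up by name. The study's list of jasmonic acid signaling, also chosen on these arrays, had 25 probe sets, of which 24, 24, 22 and 23 were tested from the first time to the last. Of these, 13, 14, 10 and 12 were called higher and 6, 7, 8 and 7 lower, beside shares of 19.9% to 26.1% and 22.6% to 36.5% of all probe sets. The names held all come from probe sets the study had called on these arrays. Among them, 6 further probe sets stood for substrate supply or side branches of the pathway. All 6 were called higher at every time, beside 19.9% to 26.1% of all probe sets. Since they were named only because the study had called them, nothing is read from this count. The 6 comprised 4 of patatin-like proteins, a family of lipid-cleaving enzymes, several of which share an identifier stem and may not be separate genes. The others were 1 omega-3 fatty acid desaturase, of the kind that makes linolenic acid, and 1 cytochrome P450 named CYP94A1. The last 2 are described here after their values were seen. The desaturase was higher by 4.19, 2.93, 2.46 and 2.49 (SE 0.18) at the 4 times, and in control leaves it rose by 1.00 from 6 to 12 h (adjusted p = 0.000178 from limma) and fell by 0.74 from 12 to 24 h (adjusted p = 0.00295 from limma). The P450 was higher by 4.65 to 5.72 (SE 0.68). Of leaf markers fixed by name, 1 probe set had a name held, a chlorophyll a-b binding protein, whose arrays read 78.3 to 900, and of seed markers none had. This probe set also moved with the groups, with CBW minus control differences of 0.60, -0.19, 2.45 and 1.95 (SE 0.22), and its part in the results above was not tested.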

How the data were processed

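RNA of pooled whole leaves was hybridized to the Affymetrix Cotton GeneChip. The authors deposited 1 table of signal intensities on a linear scale, which the submitters' processing notes credit to MAS5; the scaling target and the rule that left whole times of a probe set blank are not given in the sources used here. MAS5 signals of dim probe sets are noisy, so their fold differences are uncertain. All 24 sample columns were used. Replicates are labelled biological.

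Intensities were taken to log2 and the 8 group means were fitted with limma 3.58.1 (R 4.3.3), separately for each pattern of measured times with 1 shared prior for the spread (16 residual degrees of freedom with all times). Adjusted p-values are Benjamini-Hochberg over all probe sets tested in a comparison, from 13807 to 14627 where members were tested. With 3 arrays against 3, a 2-sided exact permutation test cannot give a p below 0.1.

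Members, lists and tests were chosen with earlier results of these data known. Per-array values are given for 1 probe set of each step, the one with the highest mean log2 intensity among those measured throughout, and for the highest and lowest difference at each time. Between times, up to 5 called members per direction are named by size, and others by range. Names come from the study's tables; the copy used here is incomplete, and the authors' fold and q-value columns in it were not used. Alternatives were quantile normalization, median centring, a floor at the 20th percentile, a pseudocount of 16, complete probe sets only, intensity trend with robust variance, a replicate block, only the groups compared, and leaving out each array.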

Additional observations from a re-analysis of the deposited data

Results flagged for a closer look

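In 3 members every CBW array lay above every control array at some times and below it at others. The share of all probe sets that did so was not counted, and nothing is read from this number. The difference between times was not tested in any of the 3 members.

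LOX-b had its CBW arrays all above control at 12 h (0.874), and all below it at 24 h (-0.298) and 48 h (-0.517), with an SE of 0.19. At 48 h all its control and CBW arrays lay below the 20th percentile of their arrays. LOX-c of the same gene had its CBW arrays all above at 6 h (0.874), 12 h (1.94) and 24 h (0.424). They were all below at 48 h (-0.193, SE 0.25). The unnamed Gorai.011G191800.1 had them all below at 6 h (-0.607), and all above at 12 h (0.591) and 48 h (0.176). For these 3 the control arrays themselves changed between 12 and 24 h, with calls in the report.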

How the results depend on the processing

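Signals near or below the 20th percentile of an array limit what can be said of AOS, KAT, LOX-a, LOX-b, LOX-d, LOX3-b, LOX3-d and LOX3-e. The same holds for JMT-b, ACX2-c, OPR3-d, BCE2-b, Gorai.010G013700.1, both probe sets of Gorai.002G020600.1 and the unnamed member measured at 6 h alone. Having 3 arrays a group limits the precision everywhere. The count of members at least 4-fold higher was 23 or 24 without any 1 array, and 16 with intensities raised to the 20th percentile. Members called higher by feeding kept within 1.5 times of their counts under every alternative run.

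With intensities raised to the 20th percentile, 3 members were called lower by feeding at 24 h and 0 at 48 h, 2 were called lower in CBW leaves from 6 to 12 h, 2 were called higher in CBW leaves from 24 to 48 h, and LOX3-b changed by 0.0506 from 12 to 24 h in control leaves, where it had fallen. With only the groups compared in the fit, 3 members were called lower in control leaves from 6 to 12 h, 2 lower in CBW leaves from 6 to 12 h, 0 lower in control leaves from 24 to 48 h, 1 higher in CBW leaves from 24 to 48 h, and 1 higher and 2 lower in control leaves from 6 to 48 h, a comparison whose alternatives were all added after the data were seen. Quantile normalization and median centring each gave 1 member lower in CBW leaves from 6 to 12 h and 2 higher from 6 to 48 h, and centring gave 0 lower in control leaves from 24 to 48 h. A pseudocount of 16 gave 1 lower in CBW leaves from 6 to 12 h and 1 higher from 24 to 48 h. Probe sets with values on all arrays alone gave 0 higher in CBW leaves from 12 to 24 h, since the AOS probe set was then not tested. Other causes were not tested.

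Without any 1 array, members called lower by feeding numbered 1 to 2 at 6 h and 0 to 1 at 48 h. In control leaves 3 to 8 were lower from 6 to 12 h, 3 to 7 higher from 12 to 24 h, 0 to 1 lower from 24 to 48 h, and 0 to 1 higher and 2 to 8 lower from 6 to 48 h. In CBW leaves 0 to 2 were lower from 6 to 12 h, 0 to 1 higher and 8 to 14 lower from 12 to 24 h, 1 to 4 lower from 24 to 48 h, and 2 to 4 higher and 6 to 12 lower from 6 to 48 h. The feeding difference at 6 h ranged from -0.163 to 0.379 in Gorai.002G043200.1 and from -0.444 to 0.107 in LOX-b.

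Replicate numbers were not shown to pair the samples at any time. For same-numbered control and CBW arrays, the correlation of their deviations was 0.191 to 0.518 at 12 h and 0.099 to 0.478 at 24 h. At 12 h, however, CBW replicate 2 correlated more with control replicate 3 (0.39) than with control replicate 2 (0.286). Same-numbered arrays had -0.187 to 0.218 at 6 h and -0.064 to -0.012 at 48 h. With the replicate number as a block, 13 members were called higher in CBW leaves from 6 to 12 h and 2 lower from 24 to 48 h, LOX-a losing its call (adjusted p = 0.0574), and no other count of members moved by more than 1.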
